A study of Mus musculus with 12 samples.

Results

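Reg3b, Reg3g and Reg4, genes of the regenerating family of small secreted C-type lectins, were followed in the colonic tissue of mice with dextran sodium sulfate (DSS) colitis. The genes were taken by their symbols from the deposited gene table, where they were 3 of 54532 genes, and all 3 passed the filter on low counts. They were chosen by their expression differences between these groups, seen in earlier comparisons of the same libraries whose contrasts are not recorded, so every difference between groups is given as a description with no test. RNA-Seq gave 12 libraries, 4 groups of 3, from the colon of wild-type male C57BL/6J mice that were 5 weeks old at purchase. The control group drank water and received no treatment. The model group drank 3% DSS, which damages the lining of the colon. The Rhy group drank the same DSS and was given rhynchophylline (Rhy), an alkaloid, by mouth once daily for 7 days, and the labels do not say whether the sequenced mice received 2, 4 or 8 mg/kg. The DXM group drank DSS and was given the glucocorticoid dexamethasone (DXM) at 4 mg/kg. No group received Rhy or DXM without DSS, so the effect of a drug alone cannot be told apart from its effect in colitis.

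Reg3b and Reg3g are secreted by intestinal epithelial cells and act against bacteria at the mucosal surface; Reg3g is known for killing Gram-positive bacteria and for keeping bacteria away from the epithelium. Their transcription is induced by microbial signals through Myd88 and by IL-22, whose receptor on epithelial cells signals through Stat3. Reg4 is a more distant member of the family, made by enteroendocrine cells and by secretory cells of the deep colonic crypt that lie beside the stem cells.

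Reg3b (ENSMUSG00000071356) lies on the plus strand at chr6:78370657-78373466 of GRCm38 and Reg3g (ENSMUSG00000030017) on the minus strand at chr6:78466269-78468872. They are the outer genes of a cluster of 98.2 kb that holds 6 genes of the table, and all 6 are Reg genes (Reg3b, Reg3d, Reg3a, Reg2, Reg1 and Reg3g). Reg4 (ENSMUSG00000027876) lies alone on another chromosome, on the plus strand at chr3:98222156-98236748. Each of the 3 genes has a principal mRNA of 6 exons, with a reading frame of 175 codons in Reg3b, 174 in Reg3g and 157 in Reg4, stop codon not counted. The coding sequences of Reg3b and Reg3g were identical at 399 of 522 aligned bases (76.4%), and those of Reg3b and Reg4 at 289 of 444 (65.1%). The longest run shared by the mRNAs of Reg3b and Reg3g was 35 bases, and none of the 734 stretches of 50 bases in the Reg3b mRNA occurred in that of Reg3g.

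The promoters of Reg3b and Reg3g are printed because these genes stand at opposite ends of the cluster and were high and low in the same libraries. Each stretch holds 250 bases before and 50 bases after the start site that RefSeq gives on GRCm38.p6, read 5′ to 3′ on the strand of the gene, at chr6:78370635-78370934 on the plus strand for Reg3b and chr6:78468825-78469124 on the minus strand for Reg3g. The capitals mark the longest run that both share, 29 bases that reach from 20 bases before the start site into the first exon at the same place in both genes. The GENCODE gene of Reg3b, as in the deposited table, begins further upstream within this stretch.
Reg3b: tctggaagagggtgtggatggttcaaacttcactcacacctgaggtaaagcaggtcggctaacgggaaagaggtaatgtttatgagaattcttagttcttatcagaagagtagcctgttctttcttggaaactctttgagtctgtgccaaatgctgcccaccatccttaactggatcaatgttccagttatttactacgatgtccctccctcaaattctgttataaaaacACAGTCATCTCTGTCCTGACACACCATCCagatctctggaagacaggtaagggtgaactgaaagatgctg
Reg3g: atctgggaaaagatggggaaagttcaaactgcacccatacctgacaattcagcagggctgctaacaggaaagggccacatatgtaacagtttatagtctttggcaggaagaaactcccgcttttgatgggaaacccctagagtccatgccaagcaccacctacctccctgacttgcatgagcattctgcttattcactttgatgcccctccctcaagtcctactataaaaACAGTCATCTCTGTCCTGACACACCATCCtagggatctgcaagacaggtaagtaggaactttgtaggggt
The aligned promoters were identical at 210 of 294 bases (71.4%), against 65.7% between Reg3b and Reg4 and 62.2% between Reg3g and Reg4. Motifs were searched with overlapping matches counted, and each was set beside its share among all 32851 RefSeq promoter stretches of the same length. A TATA box (TATAAA, searched on the strand of the gene) began 29 bases before the start site of Reg3b and 27 bases before that of Reg3g and was in 8.32% of all stretches; the Reg4 stretch held none. The palindromic STAT motif TTCNNNGAA was found 1 time, 129 bases before the start site of Reg3b, and not in Reg3g or Reg4, against 8.3% of all stretches. The NF-kB motif GGGNNNNNCC, searched on both strands, was found in Reg3g but not in Reg3b or Reg4, at 1 site 123 bases before the start site that matched on either strand, and in 50.8% of all stretches. The intestinal CDX motif TTTATNG was found 2 times in Reg3g on either strand, and its match nearest to the start site overlapped the TATA box; it was in 10.9% of all stretches. The core of the aryl hydrocarbon receptor motif, GCGTG on either strand, was in none of the 3 stretches and in 32.4% of all. A match says only that these letters are there.

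Total counts were 14346478 to 17749716 per library. Levels are in CPM, that is, reads scaled to library size with TMM factors, and a count of 3, taken as the limit of detection, was worth 0.145 to 0.257 CPM. Epcam, a surface protein of epithelial cells, was at 1140 to 2210 CPM in every library. The libraries of model 1 and model 2 were much closer to each other than any other pair. Their common dispersion (the squared coefficient of variation between libraries beyond counting noise) was 0.00201, against 0.0606 to 0.353 in the other 65 pairs. Model values with both summed into 1 library are given beside the first comparison and in the limits. Hoxb13, a marker of the distal colon, was at 0 to 1.49 CPM in control 3, model 3 and Rhy 1 and at 72 to 316 CPM in the other libraries. No DXM library was low in Hoxb13, so each comparison with the DXM group also set unlike levels of Hoxb13 side by side. The labels do not give the place along the colon from which each piece was taken. Its part in the results was not tested, and a term for Hoxb13 was only added to the fit as an alternative. In whole tissue, fewer cells of a type and less RNA per cell cannot be told apart. The labels do not tie the libraries of a group to separately named animals, so an SE measures only the spread between these libraries. Each SE came from a fit of all 12 libraries and also carries the spread of groups outside its comparison. In fits of only the groups compared, the SE of Reg4 was 0.336 for DXM against model and 1.29 for Rhy against model, in place of 1.13 for both. That of Reg3b for model against control was 0.972 in place of 1.94.

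Reg3b was expressed at 126, 14.1 and 77.2 CPM in control 1 to 3. It was at 4740, 4830 and 1120 CPM in model 1 to 3. In the Rhy group it was at 31.6, 70.7 and 1090 CPM, and in the DXM group at 103, 1280 and 1.98 CPM. The 12 libraries thus fell on either side of a wide gap, with the 3 model libraries, Rhy 3 and DXM 2 at or above 1090 CPM and the other 7 at or below 126 CPM. Rhy 3 was close to model 3, with 19313 and 18734 reads, while the other Rhy libraries lay within the range of the control group. DXM 3, with 39 reads, was the lowest of all and lay below every control library.

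Reg3g followed the same libraries at a lower level. It was at 30.2, 7.58 and 21.6 CPM in the control group and at 1300, 1350 and 256 CPM in the model group. In the Rhy group it was at 12.0, 23.1 and 311 CPM, and in the DXM group at 27.2, 171 and 1.37 CPM. The same 5 libraries were the highest for Reg3g, and here Rhy 3 lay above model 3. The other Rhy libraries and DXM 1 were again within the control range, and DXM 3 was again the lowest, with 27 reads.

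Reg4 gave another order of the libraries. It was at 15.4, 74.7 and 28.1 CPM in the control group and at 37.9, 35.7 and 26.0 CPM in the model group. The model group lay wholly within the control range. In the Rhy group it was at 2.83, 230 and 537 CPM, and in the DXM group at 159, 237 and 375 CPM. Every DXM library and 2 of 3 Rhy libraries lay above all control and model libraries, while Rhy 1, with 33 reads, was the lowest of the 12.

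**Figure D1:**
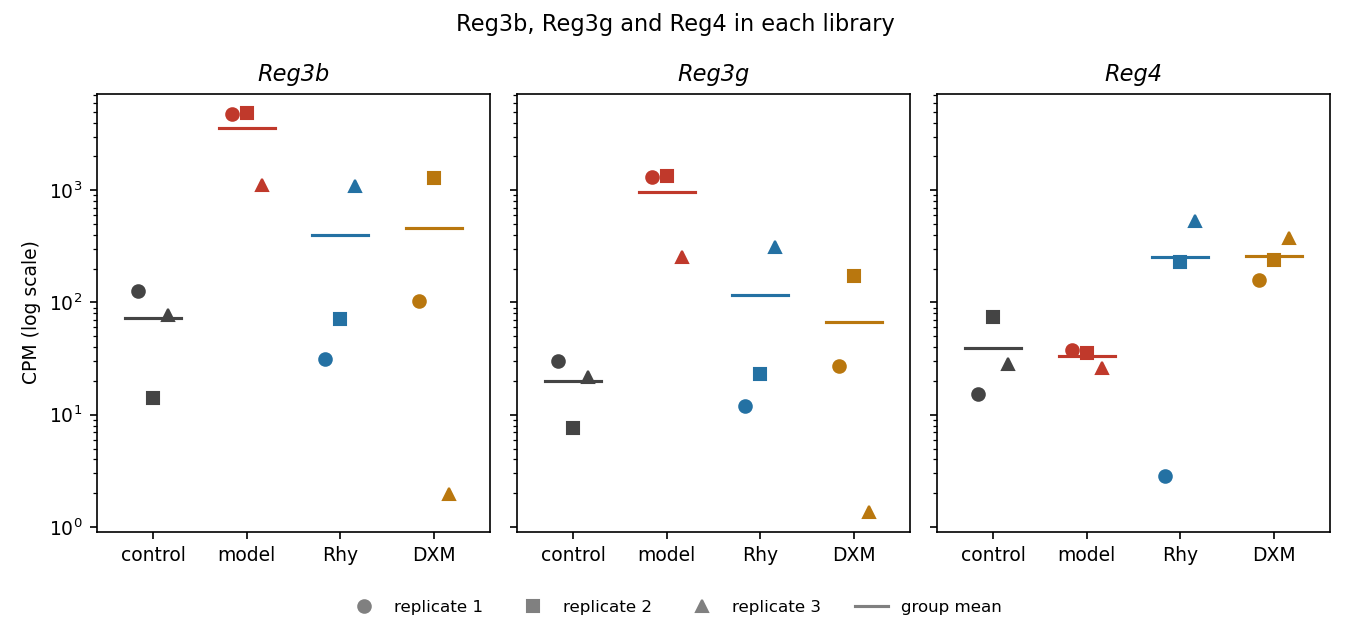
CPM of Reg3b, Reg3g and Reg4 (log axis) in each library of the control, model, Rhy and DXM groups; symbols give the replicate number and the line is the group mean. For Reg3b the 3 model libraries, Rhy 3 and DXM 2 sit at or above 1090 CPM and the other 7 at or below 126 CPM, and for Reg4 the highest libraries are Rhy 3 and DXM 3.

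The members were among the genes that varied most between libraries of the same group. The within-group SD of log2 CPM was 2.88 for Reg3b, 2.29 for Reg3g and 2.12 for Reg4, against a median of 0.42 over the 16904 genes tested. Of those genes, 99.9%, 99.6% and 99.4% had a smaller SD than Reg3b, Reg3g and Reg4. Ranked by FPKM, the deposited count per length and library size, Reg3b ranged from the 7th most abundant gene in model 2 to rank 11080 in DXM 3. Reg3g ranged from rank 68 in model 2 to rank 14315 in DXM 3, and Reg4 from rank 106 in Rhy 3 to rank 8802 in Rhy 1.

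Compared per length, Reg3b was above Reg3g in all 12 libraries. In FPKM, Reg3b was at 4010, 4100 and 956 in the model group, Reg3g at 595, 618 and 118 and Reg4 at 36, 33.8 and 24.9, so the order was Reg3b, Reg3g, Reg4 in each model library, as it was in Rhy 1. Reg4 was the highest of the 3 in control 2, Rhy 2, DXM 1 and DXM 3, and in DXM 3 it was at 357 FPKM against 1.68 for Reg3b and 0.628 for Reg3g. In the remaining 4 libraries Reg4 lay between Reg3b and Reg3g. In the control group Reg3b, at 12.5 to 111 FPKM, overlapped with Reg4, at 15.1 to 74.2, and with Reg3g, at 3.64 to 14.3. Only Reg4 and Reg3g did not overlap there. In the model group none of the 3 ranges overlapped. In the DXM group Reg4, at 153 to 357 FPKM, overlapped with Reg3b but not with Reg3g, and in the Rhy group all 3 ranges overlapped. The table's length for Reg3g, 2114 bases, includes a longer transcript beside the principal mRNA of 771 bases, against 1142 and 783 bases for Reg3b. Per length of the principal mRNA, a scale added after the data were seen, Reg3g lay above Reg4 in 6 libraries in place of 4, and Reg3g and Reg4 overlapped in the control group (9.83 to 39.1 against 15 to 73.1 CPM per kb) and in the DXM group (1.77 to 222 against 155 to 367).

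Compared with the control group, the model group showed Reg3b 49.1-fold higher (log2 fold change 5.62 ± 1.94 SE, n = 3 and 3) and Reg3g 48.9-fold higher (5.61 ± 1.65). For these 2 of 3 members every model library lay above every control library, as it did for 10.4% of all genes tested, while 6.61% lay lower without overlap, and nothing is read from this count because the members were picked with such differences in view. With model 1 and model 2 summed, the log2 fold changes were 5.35 ± 2.05 for Reg3b and 5.32 ± 1.74 for Reg3g. Leaving out each library in turn gave 5.13 to 6.28 for Reg3b and 5.23 to 6.05 for Reg3g. Reg4 differed by a log2 fold change of -0.25 ± 1.06, the groups overlapped, and the sign turned to 0.61 without control 2, the highest control library.

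Compared with the model group, the Rhy group showed Reg3b 8.94-fold lower (log2 fold change -3.16 ± 1.73) and Reg3g 8.37-fold lower (-3.06 ± 1.46). The groups did not overlap for Reg3b, where the highest Rhy library was at 1090 CPM and the lowest model library at 1120 CPM; they overlapped for Reg3g. Of all genes tested, 6.02% lay lower and 5.51% higher without overlap. The size of the difference rested on Rhy 3: without it the log2 fold changes were -6.12 and -5.78, and without Rhy 1 they were -2.61 and -2.53. Reg4 was 7.73-fold higher in the Rhy group (2.95 ± 1.13) with overlapping groups, at 1.81 without Rhy 3 and 3.53 without Rhy 1. In limma on log2(FPKM + 1) Reg4 differed by 1.24, Reg3b by -4.40 and Reg3g by -3.97.

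Compared with the model group, the DXM group showed Reg3b 7.73-fold lower (log2 fold change -2.95 ± 1.71) with overlapping groups, and Reg3g 14.5-fold lower (-3.86 ± 1.52) without overlap. Reg4 was 7.73-fold higher (2.95 ± 1.13), and every DXM library lay above every model library. Among all genes tested, 12.2% lay lower and 10.4% higher in the DXM group without overlap. Without DXM 2 the differences of Reg3b and Reg3g were both -6.09, and without DXM 3 they were -2.37 and -3.28. The difference of Reg4 stayed between 2.57 and 3.2 whichever library was left out. In limma on log2(FPKM + 1) Reg3b differed by -5.29 and Reg3g by -4.86.

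Against the control group, the Rhy group showed Reg3b 5.49-fold (log2 fold change 2.46 ± 1.68), Reg3g 5.85-fold (2.55 ± 1.44) and Reg4 6.52-fold (2.71 ± 1.12) higher, with overlap for all 3; of all genes tested, 7.5% lay higher and 4.79% lower without overlap. The values of Reg3b and Reg3g rested on Rhy 3, and without it they were -0.50 and -0.17. The DXM group showed Reg3b 6.35-fold (2.67 ± 1.70), Reg3g 3.37-fold (1.75 ± 1.40) and Reg4 6.52-fold (2.71 ± 1.12) higher than the control group. Here only Reg4 did not overlap, against 9.77% of all genes lying higher and 8.89% lower without overlap. Without DXM 2 the values of Reg3b and Reg3g were -0.47 and -0.48. In limma on log2(FPKM + 1) the DXM group differed from the control group by 0.44 in Reg3b, 0.38 in Reg3g and 2.83 in Reg4. These comparisons share their control or model libraries and are no independent views of the members.

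The mean of the 3 DSS groups lay above the control group by a log2 fold change of 3.58 ± 1.65 for Reg3b, 3.30 ± 1.38 for Reg3g and 1.72 ± 0.96 for Reg4. The 9 DSS libraries overlapped the control libraries for all 3 members, while 1.95% of all genes lay higher and 1.33% lower without overlap.

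edgeR's quasi-likelihood test called no gene at an adjusted p under 0.05 in any of the 6 comparisons, which is 0% of the 16904 genes tested, the members included. At an unadjusted p under 0.05 it passed 1626 genes (9.62%) for model against control, 628 (3.72%) for Rhy against model and 1300 (7.69%) for DXM against model. Against the control group it passed 1953 (11.6%) for Rhy, 3189 (18.9%) for DXM and 2882 (17%) for the DSS groups together. DESeq2 called 65, 7, 54, 65, 1173 and 854 genes in the same order, and the members were 0 of 3 in each.

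**Figure D2:**
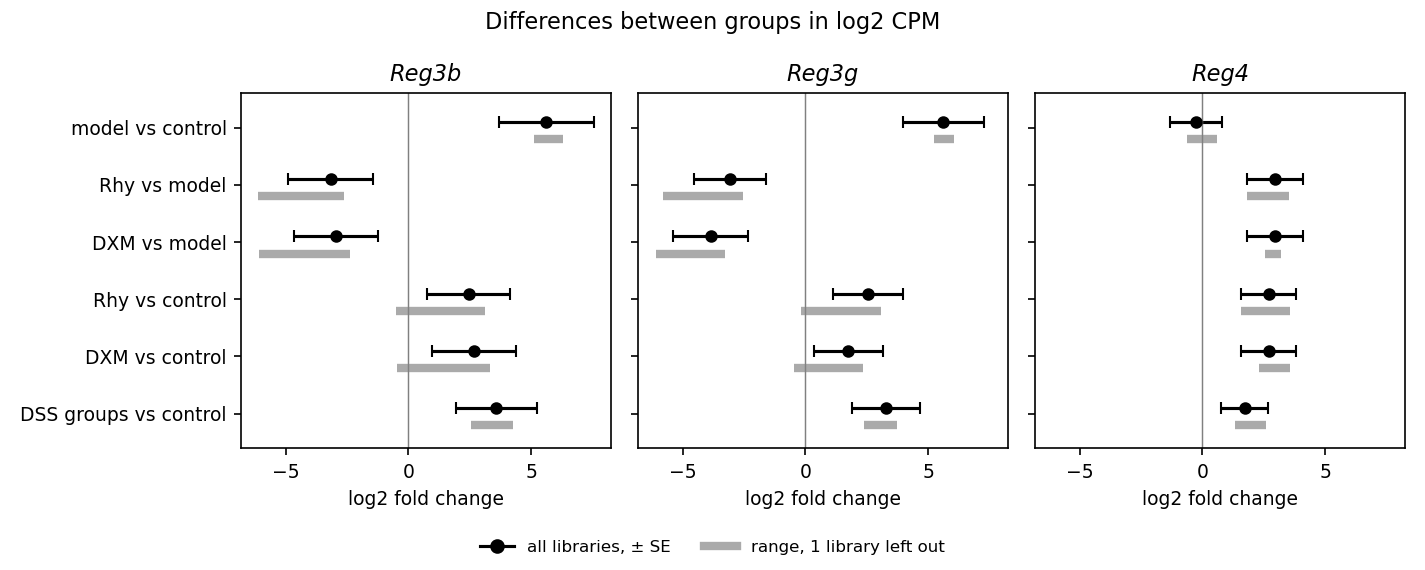
Log2 fold change of Reg3b, Reg3g and Reg4 in 6 comparisons; points and bars are the value from all 12 libraries ± SE, and grey bars span the values found when each library was left out in turn. The grey bars of Reg3b and Reg3g cross 0 for Rhy and DXM against control, where they reach -0.50 and -0.47 for Reg3b, and those of Reg4 cross 0 only for model against control.

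Reg3b and Reg3g moved together from library to library. Across the 12 libraries, which are not independent within a group, log2 CPM of Reg3b and Reg3g had a Pearson's r of 0.991 (Spearman's rho 0.965), and 0.99 after the group means were taken away. The corresponding r with Reg4 was -0.06 for Reg3b and -0.05 for Reg3g, and 0.21 and 0.28 after the group means were taken away. The ratio of Reg3b to Reg3g reads was 3.65 in model 1 (95% exact interval 3.6 to 3.7, for counting error only) and 3.58 in model 2 (3.53 to 3.64), and it was 4.18 in control 1, 3.58 in control 3, 3.51 in Rhy 3 and 3.79 in DXM 1. It was 4.37 (4.22 to 4.52) in model 3. DXM 2 stood apart with 7.46 (7.2 to 7.73). The libraries with the fewest reads of both genes had the lowest ratios, 1.86 (1.47 to 2.37) in control 2 and 1.44 (0.862 to 2.45) in DXM 3. Rhy 1 and Rhy 2 were at 2.64 and 3.06.

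**Figure D3:**
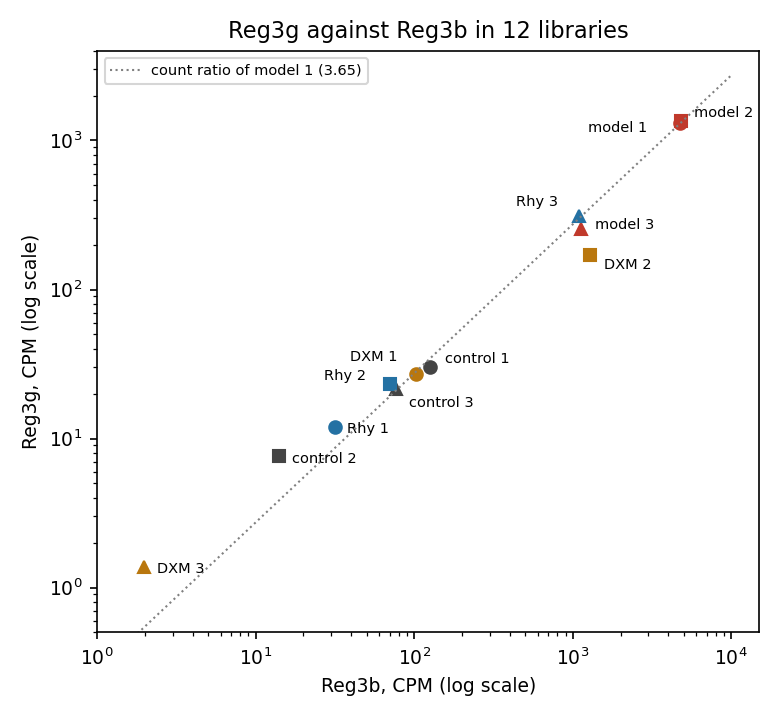
CPM of Reg3g against CPM of Reg3b in the 12 libraries, both on log axes; the dotted line marks the count ratio of model 1, 3.65. DXM 2 lies below the line with a ratio of 7.46, and the 3 libraries with the fewest reads, DXM 3, control 2 and Rhy 1, lie above it with 1.44, 1.86 and 2.64.

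The genes most like each member were sought by Pearson's r of log2 CPM over the 12 libraries among all genes tested. For both Reg3b and Reg3g the nearest gene outside the members was E2f2, a transcription factor of the cell cycle (r = 0.937 and 0.945), at 5.77 to 30.8 CPM. Gm15610, the kinesins Kif4 and Kifc5b and the histone methyltransferase Suv39h1 completed the first 5 for each, with r of 0.874 to 0.907 for Reg3b and 0.888 to 0.906 for Reg3g. With the group means taken away the r of E2f2 was 0.899 and 0.904. For Reg4 the nearest were Prdm14 (0.945), Epb41l2 (0.927), Tspan5 (0.925), Osbpl8 (0.921) and Gm10263 (0.91), and Prdm14, a regulator of pluripotency, was at only 0.171 to 5.11 CPM. These genes were found by searching all genes tested and share libraries, depth and scaling with the members.

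Of the other Reg genes, only Reg3a passed the filter, with 0 to 57 reads per library. Its highest counts were in libraries high in Reg3b: 57 reads in Rhy 3, 24, 23 and 9 in model 1 to 3 and 21 in DXM 2, against at most 3 in every other library. Its coding sequence was identical to that of Reg3b at 75.9% of aligned bases and the longest run shared by the mRNAs was 24 bases. Its log2 fold change was 3.57 for model against control, and its r with Reg3b was 0.821 over the 12 libraries. Reg1, Reg2 and Reg3d each had 0 to 4 reads in any library.

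The signals known to induce the Reg3 genes were examined next, beginning with the ligands. Il22 had 2, 3 and 0 reads in the control group and 0 reads in every model library, which allows at most 0.165 to 0.182 CPM. In the Rhy group Il22 had 0, 13 and 2 reads and in the DXM group 2, 31 and 35. The libraries with the most Il22 reads, DXM 3 and DXM 2, had the lowest Reg3b of the 12 libraries and one of the 3 highest, at 1.98 and 1280 CPM. Il17a had 0 to 5 reads and Il6 0 to 8 reads per library, too few to compare. Il1b was at 2.32, 2.57 and 3.79 CPM in the control group, 1.38, 2.31 and 0.298 in the model group, 1.03, 3.33 and 3.56 in the Rhy group and 1.99, 4.77 and 8.46 in the DXM group.

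Among the receptors and signal carriers, Il22ra1, the epithelial subunit of the IL-22 receptor, was at 5.24, 30.5 and 26.4 CPM in the control group and 10.9, 10.9 and 7.39 in the model group. It was at 15.5, 10.1 and 8.03 CPM in the Rhy group and 7.41, 3.18 and 3.39 in the DXM group. Every DXM library thus lay below every library of the other groups except control 1 and model 3. Il22ra2, a soluble receptor that binds IL-22, was at 1.7 to 6.99 CPM. Stat3 varied little, from 93.1 to 177 CPM, and Myd88 from 29.6 to 50.2 CPM. Socs3, a feedback inhibitor induced by Stat3, was at 39.1, 22.8 and 15.1 CPM in the control group, 47.3, 50.2 and 20.7 in the model group, 8.48, 38.1 and 28.5 in the Rhy group and 38.3, 55.6 and 94.2 in the DXM group.

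As a group, 22 of 28 genes of IL-22, IL-17 and gp130 signaling passed the filter, and edgeR called 0 of them in either direction in any comparison. For model against control 5 had a log2 fold change above 0 and 17 below, with a median of -0.26 against 0.01 over all genes tested, of which 50.7% lay above and 49.3% below. For Rhy against model the split was 12 above and 10 below (median 0.08 against -0.01, with 48.3% of all genes above and 51.7% below) and for DXM against model 18 above and 4 below (median 0.19 against -0.01, with 48.5% and 51.5%). At an unadjusted p under 0.05 there were 4 lower for model against control and 5 higher for DXM against model, and DESeq2 called 0 in these comparisons. Of all genes tested, 5.11% passed that p higher and 4.51% lower for model against control, 1.74% and 1.98% for Rhy against model, and 4.89% and 2.8% for DXM against model. Of 24 genes of microbial sensing and IL-1 signaling 23 passed the filter and 0 were called, with medians of -0.15, -0.13 and -0.01 for model against control, Rhy against model and DXM against model. At an unadjusted p under 0.05 there were 1, 0 and 1 of them, and DESeq2 called 0 in these comparisons. In DXM against control and in the DSS groups against control DESeq2 called 1 of them lower in each. It also called 2 genes of IL-22, IL-17 and gp130 signaling lower in each. Of all 16904 genes tested it called 1173 and 854 there, in either direction.

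Other known targets of STAT3 and IL-22 were read in the same libraries. Lcn2, an iron-sequestering protein of inflamed epithelium, had 7 to 32 reads per library. S100a8 had 0 to 92 reads and S100a9 0 to 75, with the most of each in DXM 3. Saa1, a serum amyloid A, was at 1470, 1480 and 291 CPM in the model group, within the control range of 355 to 1600 CPM but for model 3, and Saa3 was at 0.98 to 35.5 CPM with its highest value in DXM 1. Of 24 genes of this list 21 were tested, 0 were called, and for model against control 11 lay above 0 and 10 below (median 0.26). For Rhy against model 5 lay above and 16 below (median -0.19), and for DXM against model 13 above and 8 below (median 0.26). At an unadjusted p under 0.05 there were 1 higher and 1 lower, 2 lower, and 2 higher and 1 lower in these comparisons, with 0 called by DESeq2. The median r with Reg3b over this list was 0.09 across the 12 libraries, against 0.04 over all genes tested.

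Other antimicrobial proteins of the epithelium were also set beside the members. Retnlb, a goblet cell protein with antibacterial activity, was at 1420, 203 and 2680 CPM in the control group, 365, 365 and 2350 in the model group, 343, 338 and 394 in the Rhy group and 95.3, 1370 and 806 in the DXM group. Its 2 highest libraries, control 3 and model 3, were low in Hoxb13. Rhy 1 was also low in Hoxb13, and there Retnlb was at 343 CPM, between Rhy 2 and Rhy 3. Ang4, an antibacterial ribonuclease, was at 0 to 7.52 CPM, and Lyz1, the lysozyme of Paneth cells, at 0.549 to 17.2 CPM. Of 20 genes of this list 17 were tested and 0 called, with medians of -0.24, 0.09 and 0.24 for model against control, Rhy against model and DXM against model, 2, 1 and 3 genes at an unadjusted p under 0.05, and 0 called by DESeq2.

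**Figure D4:**
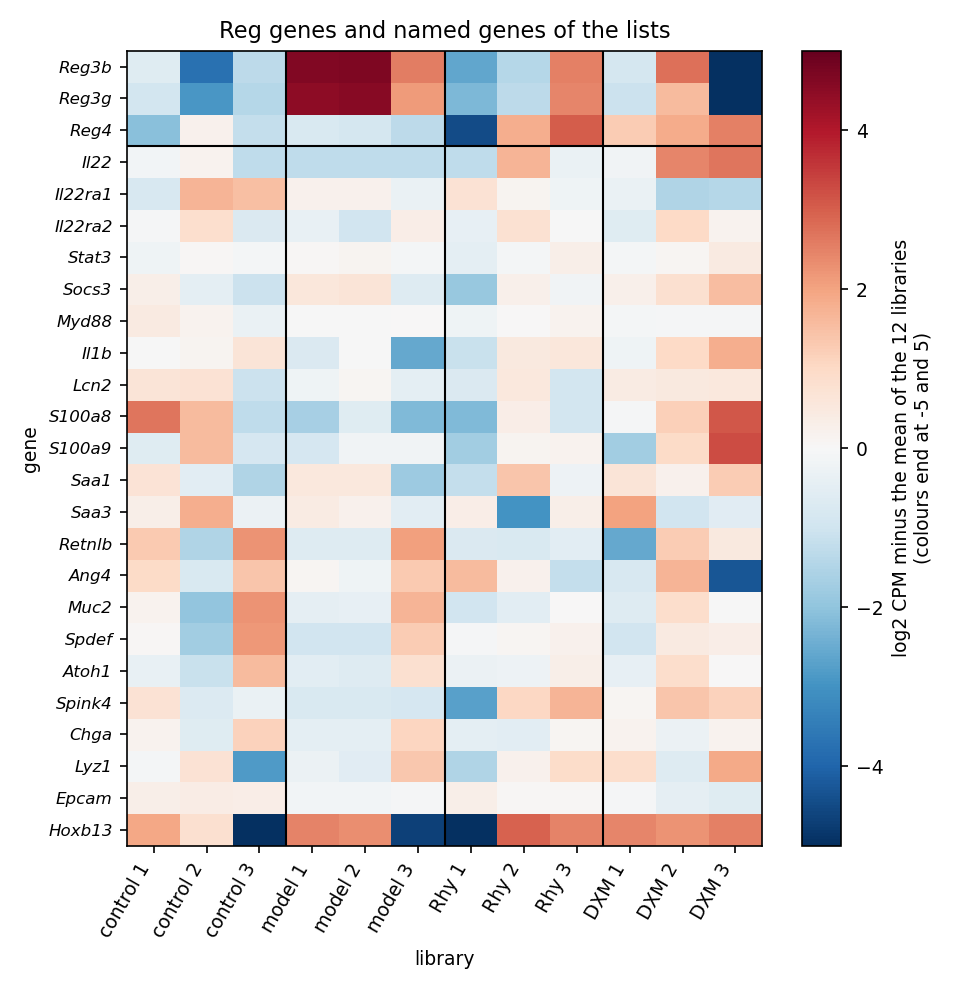
Log2 CPM of the members (above the horizontal line) and of named genes of the lists in the 12 libraries, each gene relative to its own mean; red is higher, blue is lower, and colours end 5 log2 units from the mean. Reg3b and Reg3g are red in model 1, model 2, model 3, Rhy 3 and DXM 2, Il22 is red in Rhy 2, DXM 2 and DXM 3, and Hoxb13 is blue in control 3, model 3 and Rhy 1.

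Markers of the cells that could make the members were examined in the same libraries. Goblet and deep crypt secretory markers, the cells known for Reg4, summed to 4840 to 16800 CPM in the control group, 7080 to 12600 in the model group, 4870 to 13300 in the Rhy group and 10100 to 15600 in the DXM group. Of the 20 markers, all tested, 0 were called. For DXM against model 14 lay above 0 and 6 below (median 0.37), and 1 passed an unadjusted p under 0.05. For Rhy against model 11 lay above and 9 below (median 0.04), and for model against control 6 above and 14 below (median -0.30), with 1 lower and 2 lower past that p and 0 called by DESeq2. Spink4, a secretory cell marker, was at 391, 148 and 191 CPM in the control group, 139, 140 and 134 in the model group, 36.6, 494 and 766 in the Rhy group and 252, 631 and 535 in the DXM group. Like Reg4, it was lowest in Rhy 1 and highest in Rhy 3. Tff3, Fcgbp, Clca1, Zg16, Ern2 and Bcas1 were also lowest in Rhy 1, and the other markers of the list were lowest in other libraries. Muc2, the main secreted mucin, was at 351 to 6710 CPM, Spdef at 13.1 to 200 CPM and Atoh1 at 11.2 to 74.5 CPM, and all 3 were highest in control 3, where Reg4 was at 28.1 CPM. Over the 20 markers the median r with Reg4 was 0.38 (range -0.66 to 0.85), against 0.06 over all genes tested. It was similar or higher for lists of other kinds, at 0.64 for pancreatic acinar cells (5 genes), 0.59 for neutrophils (7 genes), 0.40 for STAT3 and IL-22 targets and 0.38 for smooth muscle.

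Enteroendocrine markers, the other cells known for Reg4, summed to 231 to 495 CPM in the control group, 334 to 515 in the model group, 436 to 577 in the Rhy group and 498 to 588 in the DXM group. Of 18 tested markers 0 were called, with medians of -0.13, 0.32 and 0.22 for model against control, Rhy against model and DXM against model and 1, 0 and 3 at an unadjusted p under 0.05. Chga, a granule protein of these cells, was at 32.1 to 107 CPM, highest in control 3 and model 3. The median r of the list with Reg4 was 0.43 (range -0.81 to 0.82), and 13 of the 18 markers had an r above 0. It was 0.64 for the pancreatic acinar list and 0.59 for the neutrophil list, of which only 5 and 7 genes were tested. The part of cell numbers in the levels of Reg4 was not tested.

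Colon epithelial markers, the cells known for Reg3b and Reg3g, summed to 37100 to 58000 CPM in the control group, 31500 to 41800 in the model group, 40600 to 47000 in the Rhy group and 26100 to 42300 in the DXM group. For model against control 1 of 20 lay above 0 and 19 below (median -0.42), with 7 lower at an unadjusted p under 0.05 and 0 called by edgeR or DESeq2. For Rhy against model the median was 0.29 and for DXM against model -0.23. DESeq2 called 6 of the 20 lower in DXM against control and 3 lower in the DSS groups against control. Of all 16904 genes tested it called 1173 and 854 there, in either direction. The median r of these markers was -0.13 with Reg3b and with Reg3g. Stem cell and proliferation markers summed to 216 to 369 CPM in the control group and 446 to 539 in the model group, all 11 tested lay above 0 for model against control (median 0.70; 4 at an unadjusted p under 0.05), and their median r was 0.39 with Reg3b and 0.43 with Reg3g. For Rhy against model their median was -0.06 and for DXM against model -0.28. DESeq2 called 2 of these 11 higher in the DSS groups against control. The part of these cell types in the results was not tested.

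Markers of tissues that could have been carried along were also read, since Reg genes are abundant in pancreas and Paneth cells. Of 20 pancreatic acinar markers 5 were tested; Prss2 had 0 to 1 reads per library and Cpa1 none, while Sycn, a protein of secretory granules, was at 28.2 to 2430 CPM, highest in DXM 1 and DXM 3, where Reg3b was at 103 and 1.98 CPM. The list summed to 191 to 447 CPM in the control group, 109 to 382 in the model group, 125 to 1390 in the Rhy group and 401 to 2600 in the DXM group, and its medians were -0.37, 0.08 and 0.75 for model against control, Rhy against model and DXM against model. The highest sum, 2600 CPM in DXM 1, was mostly Sycn, at 2430 CPM there. Of 10 Paneth markers 4 were tested, with medians of -1.46, 0.33 and 1.02 and sums of 19.1 to 121 CPM in the control group, 13 to 63.7 in the model group, 25.1 to 73.1 in the Rhy group and 20.6 to 69.2 in the DXM group. Defa24, a Paneth cell defensin that did not pass the filter, had 52 reads in Rhy 3 and at most 1 in any other library. For neutrophils and acute inflammation 7 of 20 genes were tested, Mpo, a defining neutrophil enzyme, had 0 to 5 reads while Ly6g had 44 to 9104, and the medians were -0.65, 0.28 and 1.35. This list summed to 21.1 to 703 CPM in the control group, 38.2 to 127 in the model group, 29.5 to 336 in the Rhy group and 209 to 318 in the DXM group. The sum of 703 CPM, in control 1, was mostly Ly6g, which had 9104 reads there. Smooth muscle markers summed to 4160 to 8410, 4980 to 6410, 7870 to 8790 and 6760 to 11600 CPM in the same groups and had medians of 0.04, 0.46 and 0.69, with 0, 1 and 5 of 12 past an unadjusted p under 0.05. T cell and innate lymphoid markers had medians of -0.12, -0.23 and 0.28. No gene of these 5 lists was called by edgeR in any comparison. In model against control, Rhy against model and DXM against model DESeq2 called 1 gene of them, of the neutrophil list and higher in the DXM group than in the model group. In DXM against control it called 3 of 12 smooth muscle genes and 1 of 5 pancreatic acinar genes higher and 1 of 14 T cell genes lower. In the DSS groups against control it called 1 pancreatic acinar gene higher. Of all 16904 genes tested it called 54 in DXM against model, 1173 in DXM against control and 854 in the DSS groups against control.

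Position along the colon was followed through 9 tested posterior Hox genes of 10, whose medians were 0.79, -0.29 and 0.47 for model against control, Rhy against model and DXM against model, with 0 called or past an unadjusted p under 0.05. Among the 3 libraries low in Hoxb13, Reg3b was at 77.2 CPM in control 3, 1120 in model 3 and 31.6 in Rhy 1, with model 3 the highest of them. Within its group, Reg3b was lowest in model 3 and in Rhy 1, while control 3 lay between control 2 and control 1. Reg4 was at 28.1, 26.0 and 2.83 CPM in these 3 libraries. With a term for Hoxb13 under 5 CPM, the log2 fold change of Reg3b was 5.07 for model against control and -3.38 for Rhy against model. That of Reg4 was 2.37 for Rhy against model and 2.36 for DXM against model. For DXM against control, the term gave 1.82 for Reg3b, 0.88 for Reg3g and 2.15 for Reg4, against 2.67, 1.75 and 2.71 without it.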

How the data were processed

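RNA-Seq libraries were made from total RNA of colonic tissue and sequenced on a HiSeq X10. The authors deposited counts, whole numbers of reads per gene with no normalization, and FPKM values made from the same counts. The submitters' processing notes name HISAT2 2.0.5, featureCounts 1.5.0-p3, DESeq2 1.16.1 and the build mm10, with no role; the strand setting is not given in the sources used here. Coordinates matched GENCODE M21 (GRCm38) for 53585 of 54495 shared identifiers (98.3%). The tables held 0 columns outside the sample list.

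The members and the lists, written from general knowledge, were chosen with earlier results of these data known. Of 54532 genes, 24548 had no count, and 16904 passed filterByExpr (minimum count 10). All 12 libraries were fitted together on group means in edgeR 4.0.16 (R 4.3.3; TMM, glmQLFit and glmQLFTest, two-sided, Benjamini-Hochberg adjustment). SE is the log2 fold change divided by the square root of F. CPM carries no prior count, and log2 CPM for correlations a prior count of 2. Ratios have exact binomial intervals (95%). limma 3.58.1 and DESeq2 1.42.0 served as alternatives. Named genes were the members, the other Reg genes, 25 genes of the lists and the 5 genes most like each member by Pearson's r. Sycn, Cpa1, Mpo, Ly6g, Defa24, Tff3, Fcgbp, Clca1, Zg16, Ern2 and Bcas1 were named after their values were seen. Promoters came from RefSeq, and all 3 members matched.

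On simulated counts of 16904 genes, of which 16590 passed the filter, edgeR recovered 155 of 200 genes changed 4-fold between model and control and called 7 others. The changed genes were drawn from those with higher mean counts, and every library was drawn independently around means otherwise shared by all groups. The near-identical model libraries were thus not reproduced, so this share does not measure what the test could find in the real libraries.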

Additional observations from a re-analysis of the deposited data

How the results depend on the processing

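Reg3b, Reg3g and Reg4 kept the direction of each difference under the alternatives run (21 for the DSS groups, which had no fit of only the groups compared, and 22 for each other comparison), except Reg3b and Reg3g for Rhy against control without Rhy 3, the same genes for DXM against control without DXM 2, and Reg4 for model against control without control 2 and with the replicate block. A term for Hoxb13 moved Reg4 for DXM against model from 2.95 to 2.36, more than the spread between replicates. Lowest and highest log2 fold changes with 1 library left out were, for Reg3b, 5.13 and 6.28 (model against control), -6.12 and -2.61 (Rhy against model), -6.09 and -2.37 (DXM against model), -0.50 and 3.12 (Rhy against control), -0.47 and 3.33 (DXM against control) and 2.54 and 4.25 (DSS groups). For Reg3g in this order they were 5.23 and 6.05, -5.78 and -2.53, -6.09 and -3.28, -0.17 and 3.08, -0.48 and 2.33, and 2.4 and 3.74. For Reg4 they were -0.63 and 0.61, 1.81 and 3.53, 2.57 and 3.2, 1.57 and 3.56, 2.32 and 3.56, and 1.34 and 2.58. Genes called by edgeR rose from 0 to 1, 1, 13 and 44 with genes of any count (model, Rhy, DXM and DSS groups against control), to 1 and 2 with only the groups compared (model against control and DXM against model), and to at most 1, 1, 0, 1, 4 and 27 with 1 library left out, the last 2 without DXM 1 and the others without model 3 (model against control, Rhy against model) or DXM 3 (Rhy against control). DESeq2 called 65, 7, 54, 65, 1173 and 854, and limma on log2(FPKM + 0.1) called 2 for Rhy against model and 1 for DXM against model. Genes at an unadjusted p under 0.05 numbered 888 to 2811, 289 to 1066, 537 to 1834, 1195 to 2938, 1639 to 4075 and 1775 to 3704 with 1 library left out; 866, 283 and 736 with model 1 and model 2 summed, for the first 3 comparisons; 972 with genes of any count for Rhy against model; and 2514 and 999 with only the groups compared, for DXM against model and Rhy against control. With model 1 and model 2 summed, Reg3b was at -2.89 for Rhy against model and -2.68 for DXM against model and Reg3g at -2.77 and -3.56. In limma on log2(FPKM + 1) Reg4 was at 1.24 for Rhy against model and 1.22 for Rhy against control. Whether replicate numbers pair the samples could not be decided. Of 18 pairs of the same number, 6 had deviations correlated above 0.1 (range -0.31 to 0.36), and no pairs of different numbers were set beside them. With the replicate block the number of genes called stayed at 0, and Reg4 was at 0.16 for model against control and 2.2 for Rhy against model. Of 1962 list medians, 1914 moved by less than the spread between replicates and 48 by more. The causes of these changes were not tested. Groups of 3, the near-identical model libraries and the spread of the members within groups limit every difference, and fewer than about 30 reads stand behind Il22, Il17a, Il6 and Reg3a in most libraries.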
